A study of Homo sapiens with 15 samples.

Results

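Pellets of DiFi cells were compared with cells of the same established line, which derives from a human colorectal cancer and is here labelled plate 2 and plate 3. The libraries were chosen by name, with 2 cell pellets (HF6 and HF7) against 4 plate libraries (HF6 plate 2, HF6 plate 3, HF7 plate 2 and HF7 plate 3). These are 6 of the 15 samples in the labels, of which 14 are columns of the table of miRNA read counts. All 6 libraries share the cell line and the tissue label colorectal cancer, and the labels give no treatment, dose, time or passage for any of them. HF, HDM and the plate numbers are not spelled out, and neither is how a pellet was collected or how it differs from the cells of a plate. The series set out to try ways of growing colorectal cancer cells for the collection of secreted small RNA carriers. No label says whether HF6 and HF7, or the plates, are separate cultures, so the p-values below measure the spread between these libraries, which may be technical. HF6 plate 1 and HF7 plate 1 were kept as a group of their own and are given beside the results.

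MicroRNAs (miRNAs) are short RNAs that guide Argonaute proteins to messenger RNAs and lower the output of those messages. A hairpin in a longer transcript is cut out by Drosha and then by Dicer, which leaves a duplex whose arms are named 5p and 3p, and usually 1 arm is kept at a far higher level than the other. The seed, bases 2 to 8 of the mature strand, does most of the target recognition, so miRNAs with the same seed form a family even where they come from different chromosomes. In gut epithelium the miR-200 family and the relatives miR-192 and miR-215 with their neighbour miR-194 are known as epithelial miRNAs, and miR-21 and the miR-17-92 cluster are known for high levels in colorectal tumours.

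The sequences that the results turn on are shown first, 5′ to 3′ with T for U, in lower case with the seed in capitals. They are given as in the deposited table, and each of those shown is the same as the mature sequence in RefSeq. The first set holds the abundant miRNAs with the largest increases and decreases in the pellets, which share no seed with each other.
miR-1246: aATGGATTtttggagcagg
miR-146a-5p: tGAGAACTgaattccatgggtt
miR-12136: gAAAAAGTcatggaggcc
miR-210-3p: cTGTGCGTgtgacagcggctga
miR-375-3p: tTTGTTCGttcggctcgcgtga
miR-592: tTGTGTCAatatgcgatgatgt
miR-7974: aGGCTGTGatgctctcctgagccc
miR-4521: gCTAAGGAagtcctgtgctcag
miR-12135: tAAAGGTTtgtttgtaaa
The second set holds the 3 miRNAs of the chromosome 19 cluster, each followed by a relative with the same seed from another chromosome, because the cluster members rose and 2 of the 3 relatives did not pass the test.
miR-99b-5p: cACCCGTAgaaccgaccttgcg
miR-99a-5p: aACCCGTAgatccgatcttgtg
let-7e-5p: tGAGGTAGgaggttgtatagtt
let-7a-5p: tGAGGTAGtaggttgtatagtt
miR-125a-5p: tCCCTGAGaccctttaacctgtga
miR-125b-5p: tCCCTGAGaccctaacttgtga
With positions counted from 1 at the 5′ end, let-7e-5p differs from let-7a-5p by 1 base (T9G), and miR-99b-5p from miR-99a-5p by 4 bases (A1C, T11A, T16C and T21C).
The third set holds 3 further pairs with a shared seed whose members differed in their response.
miR-27a-3p: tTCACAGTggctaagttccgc
miR-27b-3p: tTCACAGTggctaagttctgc
miR-29c-3p: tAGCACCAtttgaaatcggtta
miR-29a-3p: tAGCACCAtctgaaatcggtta
miR-301b-3p: cAGTGCAAtgatattgtcaaagc
miR-301a-3p: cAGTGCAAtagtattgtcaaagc
The b form of miR-27 changes to the a form by T19C, miR-29a-3p changes to miR-29c-3p by C10T, and miR-301a-3p changes to miR-301b-3p by A10G and G11A, all outside the seed.
The last set holds both arms of 2 hairpins, because the less abundant arm fell while the abundant arm did not pass the test. Each abundant arm was called under at least 1 other setting, given below.
miR-92a-1-5p: aGGTTGGGatcggttgcaatgct
miR-92a-3p: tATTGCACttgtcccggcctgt
miR-194-3p: cCAGTGGGgctgctgttatctg
miR-194-5p: tGTAACAGcaactccatgtgga

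The pellet libraries held 3829742 (HF6) and 313380 (HF7) counts, the plates 2 and 3 between 1246482 and 4184886, and plate 1 3771608 and 2664145. The shallow HF7 pellet sets the precision of low levels: a floor of 3 counts, used where an entry has no reads, equals 10.5 CPM (reads of an entry set relative to those of its library) there and to 1.09 CPM in the HF6 pellet. Levels below are CPM after TMM scaling, a factor per library that sets most miRNAs to equal level, and a fold compares a miRNA with the rest of its library, since the table holds no spiked-in RNA. Of the 1619 entries, 534 passed the filter on low counts and hold 99.96% of the counts. miR-21-5p was the most abundant entry in each library, with 12.7% and 19.3% of the pellet counts and between 12.9% and 15.8% of those of plates 2 and 3. It was called higher in the pellets (0.48 ± 0.16, edgeR adjusted p = 0.0231), but the call was lost without the HF7 pellet (0.22, adjusted p = 0.292), HF6 plate 3 (0.43, adjusted p = 0.0625) or HF7 plate 3 (0.41, adjusted p = 0.0543). It was also lost under 6 other settings. They were with total counts as the only scaling (0.16, adjusted p = 0.375), without a filter (0.25, adjusted p = 0.463), and with at least 50 counts (0.40, adjusted p = 0.0518). The others were after thinning to the smallest library (0.35, adjusted p = 0.0891), with DESeq2 (0.51, adjusted p = 0.0537) and with limma-voom (0.42, adjusted p = 0.199). Log2 levels of the 283 miRNAs whose mean reached 20 CPM correlated with r between 0.988 and 0.994 among the 4 plate libraries, with r = 0.950 between the pellets, and with r between 0.889 and 0.918 between a pellet and a plate 2 or 3 library. These correlations are across miRNAs of single libraries and are given as a description.

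In the pellets 215 of the 534 miRNAs (40.3%) differed from plates 2 and 3 at an adjusted p under 0.05 (edgeR quasi-likelihood test with Benjamini-Hochberg adjustment), 101 of them higher (18.9%) and 114 lower (21.3%). The pellet and plate libraries did not overlap for 284 miRNAs (53.2%), with the pellets on the higher side for 116 (21.7%) and on the lower side for 168 (31.5%). The median log2 difference over all tested miRNAs was -0.10, and it became -0.98 without a filter on low counts, over 1550 entries, and -0.50 when total counts were the only scaling. With total counts 72 miRNAs were called higher and 193 lower, so that 27.2% of the calls were increases, against 47.0% with TMM. With limma-voom and quality weights 107 were called, 72 higher and 35 lower (67.3% increases). Among the 85 miRNAs with a mean of 1000 CPM or more, 28 were higher and 8 lower with a median log2 difference of 0.29, while among the 251 below 20 CPM 28 were higher and 46 lower with a median of -0.36. In bulk RNA such as this, fewer cells of a kind and less RNA per cell cannot be told apart.

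**Figure D1:**
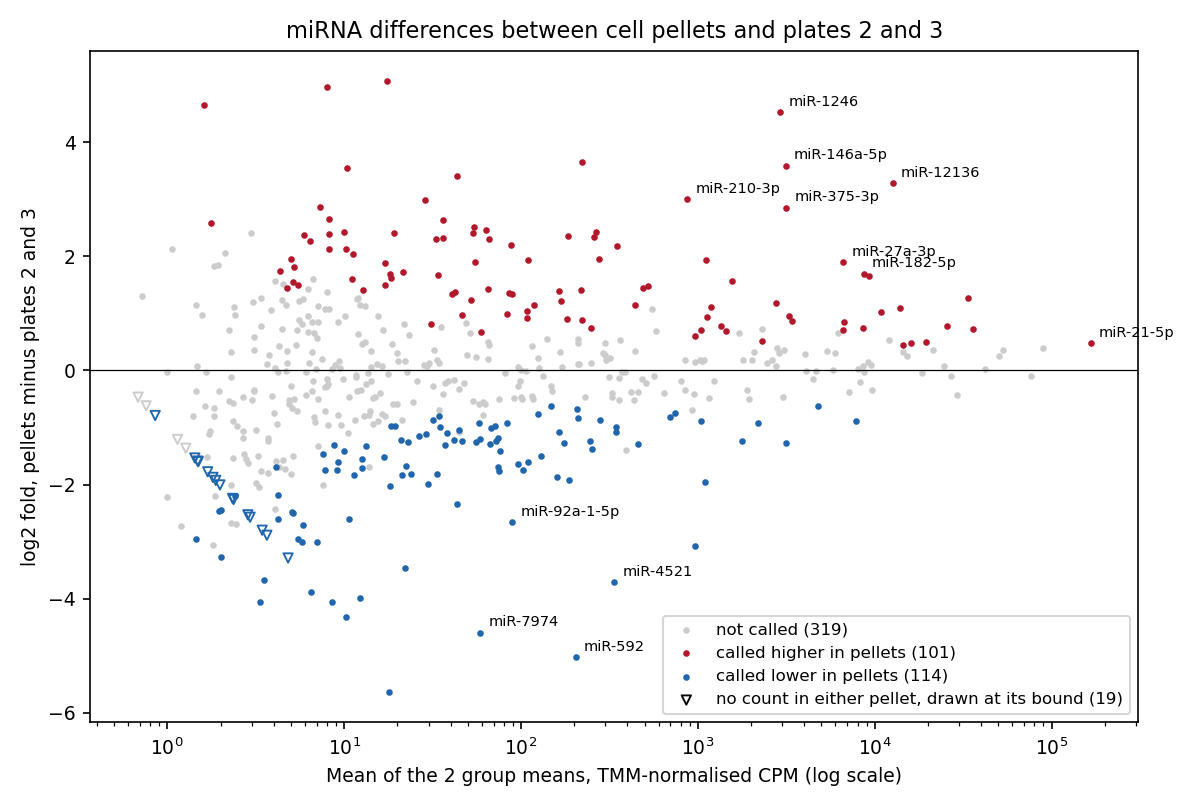
The log2 fold of each of the 534 tested miRNAs (pellets minus plates 2 and 3, vertical axis) against the mean of the 2 group means in TMM-normalised CPM (log scale, horizontal axis). Red points are the 101 miRNAs called higher in the pellets, blue points the 114 called lower, and open triangles the 19 entries with no count in either pellet, drawn at the bound that the floor of 3 counts gives, and the labelled miR-592 lies lowest among the points with a mean above 100 CPM.

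Among called miRNAs with a group mean of at least 100 CPM and no overlap of pellets and plates, the largest increases in the pellets were those of miR-1246, miR-3609, miR-146a-5p, miR-12136, miR-210-3p and miR-375-3p. Some rarer miRNAs below that limit had larger fitted differences. miR-1246 (chr2:176601024-176601042, minus strand) stood at 3542 and 7633 CPM in the HF6 and HF7 pellets and at 184, 201, 235 and 347 CPM in HF6 plate 2, HF6 plate 3, HF7 plate 2 and HF7 plate 3, the order kept for all values below. Both pellets lay far above all 4 plate libraries, a log2 difference of 4.52 ± 0.32 (SE), or 23.0-fold, with an adjusted p of 1.47e-08 (edgeR). miR-1246 lies in no host gene of GENCODE release 29, and its reads are known to overlap fragments of the U2 small nuclear RNA.

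miR-146a-5p, known for dampening NF-kB signalling, lies in an exon of the noncoding gene MIR3142HG (chr5:160485372-160485393, plus strand) and stood at 7276 and 4299.6 CPM in the pellets against 543, 459, 445 and 483 CPM on the plates. The groups did not overlap, and the 4 plate libraries were close to each other. The log2 difference was 3.59 ± 0.25 (12.01-fold, edgeR adjusted p = 1.41e-08). miR-210-3p, the miRNA best known for its induction by low oxygen, lies in an intron of MIR210HG (chr11:568112-568133, minus strand). It stood at 1908 and 1194 CPM in the pellets and 108, 202, 95.1 and 377 CPM on the plates, higher in both pellets by 2.99 ± 0.43 on the log2 scale (edgeR adjusted p = 8.26e-05). Plate 3 exceeded plate 2 for this miRNA within HF6 and within HF7, and both plate 1 libraries, at 927 and 527 CPM, lay between the plates and the pellets.

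miR-375-3p, known from pancreatic islets and from gut enteroendocrine cells, lies between genes (chr2:219001648-219001669, minus strand) and stood at 4606 and 6453 CPM in the pellets and 441, 810.5, 492 and 1314 CPM on the plates. Its groups did not overlap, with a log2 difference of 2.85 ± 0.32 (edgeR adjusted p = 6.93e-06), and plate 3 again exceeded plate 2 in both HF6 and HF7. miR-12136 (chr1:632668-632685, minus strand) was uneven between the pellets, at 40156 and 5585 CPM in HF6 and HF7, against 1763, 2454, 2608 and 2594 CPM on the plates. Both pellets exceeded all 4 plates by 3.28 ± 0.52 on the log2 scale (edgeR adjusted p = 6.48e-04), and the entry alone took 2.88% of the counts of the HF6 pellet. miR-3609, in an intron of TRRAP, was uneven in the same way, at 716 and 98.0 CPM against 34.6, 42.2, 32.4 and 29.7 CPM (log2 difference 3.64 ± 0.45, edgeR adjusted p = 2.03e-05).

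The other 6 of the 12 largest increases among miRNAs with a group mean of at least 100 CPM ran from 2.20 to 2.46 on the log2 scale, and in each the pellets exceeded all 4 plates. They were miR-574-3p, an intronic miRNA of FAM114A1, miR-625-3p, an intronic miRNA of FUT8 that is often raised in colorectal tumours, miR-320d, which is made without Drosha, and the cluster of miR-99b-5p, let-7e-5p and miR-125a-5p described below. miR-625-3p stood at 518 and 375 CPM in the pellets and at 81.9, 78.7, 98.8 and 77.2 CPM on the plates, with little spread in either group. The next largest increase outside these 12 was that of miR-29c-3p (2.17).

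**Figure D2:**
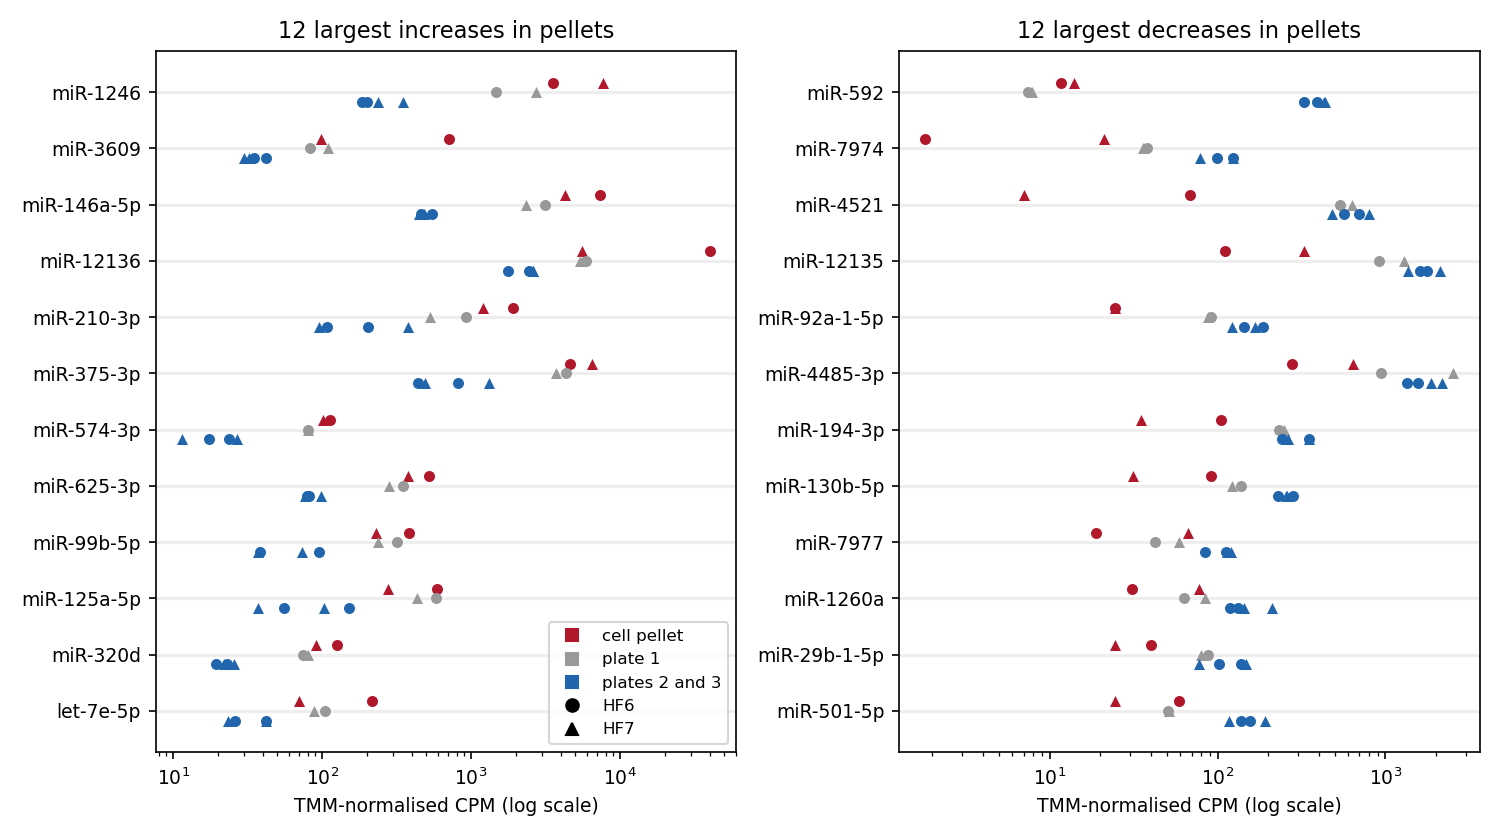
TMM-normalised CPM (log scale, horizontal axis) in each library of the 12 largest increases (left) and 12 largest decreases (right) in the pellets. Colours are the groups, circles HF6 and triangles HF7, and grey points are plate 1, which for miR-592 sits with the pellets (7.46 and 7.81 CPM) and for miR-4521 with plates 2 and 3 (535 and 629 CPM).

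The largest decrease above the same limit of 100 CPM was that of miR-592, a miRNA known from colorectal tumours that lies in an intron of GRM8 (chr7:127058148-127058169, minus strand). It stood at 11.6 and 14.01 CPM in the pellets and at 326, 389, 429 and 434 CPM on the plates. The plate libraries were all within a narrow range and far above the pellets, a log2 difference of -5.02 ± 0.31 (32.5-fold lower, edgeR adjusted p = 4.26e-09). These pellet levels rest on 32 and 4 counts. miR-7974, in introns of ZNF653 and AC008481.3 (chr19:11495544-11495567, minus strand), stood at 1.82 and 21.0 CPM against 124, 99.0, 124 and 79.0 CPM and differed by -4.59 ± 0.63 on the log2 scale (edgeR adjusted p = 2.84e-05).

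miR-4521 (chr17:8186948-8186969, plus strand) stood at 68.3 and 7.003 CPM in the HF6 and HF7 pellets and at 564, 699, 798 and 479 CPM on the plates, a log2 difference of -3.71 ± 0.44 (edgeR adjusted p = 8.63e-06). Both pellets were below every plate, and the 2 pellets were far apart from each other. miR-12135, in an intron of NEO1 (chr15:73299962-73299979, plus strand), stood at 111 and 326 CPM against 1610.0, 1774, 2122 and 1360.0 CPM, so it was lower in both pellets by a log2 difference of -3.07 ± 0.39 (edgeR adjusted p = 1.13e-05). miR-92a-1-5p, the rarer arm of a miR-17-92 hairpin, was alike in both pellets at 24.4 and 24.5 CPM and lower than on the plates, at 186, 144, 166 and 121 CPM (log2 difference -2.66 ± 0.30, edgeR adjusted p = 4.20e-06). The other 7 of the 12 largest decreases ran from -1.95 to -1.65: miR-4485-3p, miR-194-3p, miR-130b-5p, miR-7977, miR-1260a, miR-29b-1-5p and miR-501-5p. Without the HF6 pellet miR-7977 (-0.74, adjusted p = 0.224) and miR-1260a (-1.02, adjusted p = 0.0598) were no longer called, in a fit in which the median of all tested miRNAs was -0.74.

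Some low entries had no read in the pellets. Among the tested entries 19 had no count in either pellet, and 15 of them were called lower, with plate means between 1.71 and 9.64 CPM. Against a floor of 3 counts over both pellets together (0.988 CPM) those 15 were at least 1.73- to 9.76-fold lower. The other 99 entries called lower had at least 1 count in a pellet. miR-23b-5p, the less abundant arm of miR-23b, stood at 0.727 and 0 CPM in the pellets and at 39.7, 43.0, 29.8 and 28.7 CPM on the plates (-5.63 ± 0.72, edgeR adjusted p = 1.10e-05).

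Plate 1, which was left out of the plate group, differed from plates 2 and 3 for 138 of the 534 miRNAs (25.8%, edgeR adjusted p under 0.05), 76 higher (14.2%) and 62 lower (11.6%). This comparison shares the 4 plate libraries with that of the pellets, so the values stand side by side only. With 1 plate 1 library left out the count dropped to 53 (without HF6 plate 1) or 59 (without HF7 plate 1). Of the 101 miRNAs higher in the pellets, 59 were also called higher on plate 1 and 83 had a plate 1 mean between the other group means. Of the 114 lower in the pellets, 49 were also called lower on plate 1, 1 was called higher, and 86 had a plate 1 mean in between. A call needs the pellets and plates 2 and 3 to lie apart, which by itself leaves room for a plate 1 mean in between. The share with such a mean over all tested miRNAs was not counted, so these counts are a description only. The largest movers differed in where plate 1 lay. miR-592 was as low on plate 1 as in the pellets (log2 difference from plates 2 and 3 -5.68, edgeR adjusted p = 2.16e-10), and miR-125a-5p as high (2.53, adjusted p = 5.83e-04). miR-4521 was not called on plate 1 (-0.12, adjusted p = 0.814), nor were miR-194-3p (-0.33, adjusted p = 0.447) and miR-4485-3p (0.00, adjusted p = 0.994).

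The counts in groups of miRNAs that follow stand against the 18.9% called higher and 21.3% called lower over all tested miRNAs. Of the epithelial miRNAs, the miR-200 family held 9 tested members, of which 4 were higher in the pellets (2 without the HF7 pellet, without a filter or with limma-voom) and none was lower, and the median of the family was 0.18 against -0.10 over all tested. With total counts as the only scaling that median was below 0, at -0.14, with 2 higher and 1 lower. miR-141-3p, which shares a transcript with miR-200c on chromosome 12, stood at 16156 and 12192 CPM in the pellets and 4106, 6810.1, 2519.7 and 4500.2 CPM on the plates and rose by 1.66 ± 0.28 (edgeR adjusted p = 2.39e-04). Its cluster mate miR-200c-3p stood at 73219 and 21806 CPM in the pellets against 17158, 21002, 17936 and 22701 CPM. Only the HF6 pellet lay clear of the plates, so that the groups overlapped although the difference was called (1.27 ± 0.31, edgeR adjusted p = 0.00459), and without the HF6 pellet it was not (0.11, adjusted p = 0.679). miR-200b-3p, from the other cluster of the family on chromosome 1, stood at 77487 and 70482 and 75116, 81048, 80035 and 80966 CPM and was not called (-0.10, edgeR adjusted p = 0.595).

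Among miR-192, miR-194, miR-215 and their opposite arms, 2 of 6 tested members were higher and 1 lower, with a median of 0.41, so that 3 of 6 were called against 40.3% over all tested. miR-215-5p, known as a target of p53 with the seed of miR-192, stood at 2248 and 2405 CPM in the pellets and 636, 806, 679 and 1010.5 CPM on the plates and rose by 1.57 ± 0.21 (edgeR adjusted p = 1.84e-05), as did its far rarer 3p arm miR-215-3p (1.88), the latter not without the HF6 pellet (1.41, adjusted p = 0.351). The abundant miR-192-5p, at 65256 and 54459.6 and 44048, 49517, 42227 and 52062 CPM, was not called (0.35 ± 0.16, edgeR adjusted p = 0.0945), and neither was miR-194-5p (0.39 ± 0.18, adjusted p = 0.0929), although both pellets exceeded all plates for miR-192-5p. RLE factors did give calls of miR-192-5p (0.35, edgeR adjusted p = 0.0492) and miR-194-5p (0.38, adjusted p = 0.0425), both higher. All 8 gut epithelial markers of the list used to check the cell label (miR-192-5p, miR-194-5p, miR-215-5p and the 5 abundant strands of the miR-200 family) were present in every library. The 9 members of the miR-200 family summed to 249063 and 163179 CPM in the pellets and to 161919, 177977, 175539 and 169089 CPM on the plates.

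The let-7 family, tumour suppressive miRNAs that share the seed GAGGTAG, had 6 of 9 tested members higher in the pellets and none lower, with a median of 0.51. The summed level of the family was 124289 and 102389 CPM in the pellets and 72171, 67434, 72011 and 77397 CPM on the plates. let-7f-5p (0.73, edgeR adjusted p = 0.00125) and let-7g-5p (0.78, adjusted p = 8.33e-04) were the abundant members that moved most, while let-7a-5p, at 27255 and 18431 CPM against 16826, 15226, 15879.8 and 17052 CPM, moved by 0.49 ± 0.18 (adjusted p = 0.0409). These members differ from each other at few bases, so reads could be split between them by the authors' counting. With total counts as the only scaling 3 were called, with limma-voom 3, in a fit of the compared libraries only 3, without the HF6 pellet 2 and without a filter 1, none of them lower. Without a filter let-7f-5p (0.48, adjusted p = 0.0827) and let-7g-5p (0.53, adjusted p = 0.0546) lost their calls. The call of let-7a-5p was lost without the HF6 pellet (0.14, adjusted p = 0.556), HF6 plate 3 (0.37, adjusted p = 0.0949) or HF7 plate 2 (0.44, adjusted p = 0.0564). It was lost as well with total counts (0.12, adjusted p = 0.544), without a filter (0.23, adjusted p = 0.561), and with at least 50 counts (0.36, adjusted p = 0.0508). The same held with the compared libraries only (0.45, adjusted p = 0.09), after thinning (0.29, adjusted p = 0.132) and with limma-voom (0.56, adjusted p = 0.121).

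The largest shift of a let-7 belonged to let-7e-5p, which lies with miR-99b and miR-125a in an intron of SPACA6 on chromosome 19 (let-7e-5p at chr19:51692793-51692814, plus strand). The cluster is 1 of 3 copies in the genome, each of which holds a relative of miR-100, of let-7 and of miR-125. let-7e-5p stood at 214 and 70.0 CPM in the pellets and 41.8, 26.0, 41.8 and 23.4 CPM on the plates (2.20 ± 0.34, edgeR adjusted p = 9.46e-05). miR-99b-5p stood at 386 and 231 and 94.8, 38.1, 73.0 and 37.0 CPM (2.36 ± 0.33, adjusted p = 3.80e-05), and miR-125a-5p at 590.4 and 277 and 152, 55.2, 103 and 37.0 CPM (2.34 ± 0.43, adjusted p = 6.48e-04). For all 3 both pellets lay above the 4 plates, and plate 3 was below plate 2 in HF6 and in HF7.

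The relatives of the same seed from the copies on chromosomes 21 and 11 differed less. miR-99a-5p stood at 3380.2 and 2941 CPM in the pellets and 2416, 2455, 2617 and 2178 CPM on the plates (0.39 ± 0.19, edgeR adjusted p = 0.104), and miR-125b-5p at 914 and 588 and 835, 824, 996 and 802 CPM (-0.19 ± 0.22, adjusted p = 0.515). miR-100-5p was near the floor, at 6.54 and 7.003 and 2.29, 1.62, 3.44 and 1.51 CPM (1.52 ± 0.61, adjusted p = 0.0551). As a share of the pair, chosen after its values were seen, miR-125a-5p made up 39.2 and 32.0% in the pellets, 15.4, 6.27, 9.40 and 4.40% on the plates and 34.2 and 28.7% on plate 1. Of the 10 tested members of the list of these polycistrons 6 were higher and none lower, with a median of 1.73. Scaling by total counts only gave 4 higher and 1 lower, miR-125b-5p (-0.57, edgeR adjusted p = 0.0197). A filter of at least 50 counts left 7 members, of which 4 were higher and none lower, with a median of 0.57. Without the HF6 pellet 1 was called, and let-7e-5p and miR-125a-5p were not (1.01, adjusted p = 0.105, and 1.61, adjusted p = 0.117).

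Other pairs with nearly identical sequence also parted. miR-27a-3p, of the miR-23a cluster on chromosome 19, stood at 8135 and 12709.8 CPM in the pellets and 2873, 2995, 2427 and 2867 CPM on the plates and rose by 1.90 ± 0.20 (edgeR adjusted p = 2.14e-06). miR-27b-3p, of the miR-23b cluster on chromosome 9, stood at 7742 and 11845 and 9807, 9622, 8132 and 9231 CPM and was not called (0.09 ± 0.19, adjusted p = 0.732, with a sign that changed with the scaling). The a form thus made up 51.2 and 51.8% of the pair in the pellets, 22.7, 23.7, 23.0 and 23.7% on plates 2 and 3, and 49.6 and 52.7% on plate 1. The neighbour of miR-27a in its cluster, miR-23a-3p, rose as well (0.84 ± 0.19, edgeR adjusted p = 0.00171), from 45.5, 43.3, 46.9 and 45.2% of the sum with miR-23b-3p on the plates to 59.96 and 59.0% in the pellets, with plate 1 above both at 67.5 and 69.5%. Over the 11 tested members of both clusters 2 were higher and 3 lower, and the 3 that fell, miR-23b-5p, miR-27a-5p (-1.25) and miR-27b-5p (-1.27), are the less abundant arms of their hairpins. Without the HF6 pellet miR-23a-3p (0.47, adjusted p = 0.0578) and miR-27a-5p (-0.90, adjusted p = 0.105) were not called.

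miR-29c-3p, whose family is known for targeting collagen messages, stood at 602 and 539 CPM in the pellets and 94.5, 167, 97.9 and 151 CPM on the plates, a rise of 2.17 ± 0.24 (edgeR adjusted p = 3.96e-06). Its far more abundant relative miR-29a-3p stood at 28157 and 21120.0 and 30408, 34404, 38587 and 30222 CPM, below the plates in both pellets but not called (-0.44 ± 0.19, adjusted p = 0.072). Several other settings did call miR-29a-3p lower, among them RLE factors (-0.45, edgeR adjusted p = 0.028) and thinning (-0.62, adjusted p = 0.00254). Its log2 difference ran from -0.80 with total counts as the only scaling (adjusted p = 2.32e-04) to -0.37, and some settings did not call it. miR-301b-3p stood at 120.0 and 63.0 CPM against 17.4, 17.8, 13.5 and 20.1 CPM (2.50 ± 0.32, edgeR adjusted p = 1.63e-05) and was higher in both pellets. miR-301a-3p, at 18.9 and 66.5 and 76.6, 80.3, 63.3 and 75.4 CPM, was lower with overlapping groups (-1.20 ± 0.41, adjusted p = 0.0267) and was not called without the HF6 pellet (-0.19, adjusted p = 0.712). Among miRNAs of the seed shared by miR-148 and miR-152, miR-152-3p rose by 2.40 ± 0.27 from 20.9, 13.8, 17.5 and 18.1 CPM to 112 and 66.5 CPM (adjusted p = 4.51e-06) and miR-148a-3p by 1.02 ± 0.26 (adjusted p = 0.00442, not called without the HF7 pellet, 0.72, adjusted p = 0.128). miR-148b-3p, at 2587 and 2521 and 4008, 3437, 2895 and 3705 CPM, was below all plates in both pellets without a call (-0.46 ± 0.20, adjusted p = 0.0739). Some settings did call miR-148b-3p lower, among them total counts (-0.80, edgeR adjusted p = 0.00349) and no filter (-0.71, adjusted p = 0.0235), and others did not. The call of miR-301a-3p was also lost with DESeq2 (-1.02, adjusted p = 0.0548), with the compared libraries only (-1.16, adjusted p = 0.0661) and after thinning (-1.03, adjusted p = 0.142), and that of miR-148a-3p with limma-voom (1.08, adjusted p = 0.0702). The choice of which pairs to set side by side was made after their values were seen.

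**Figure D3:**
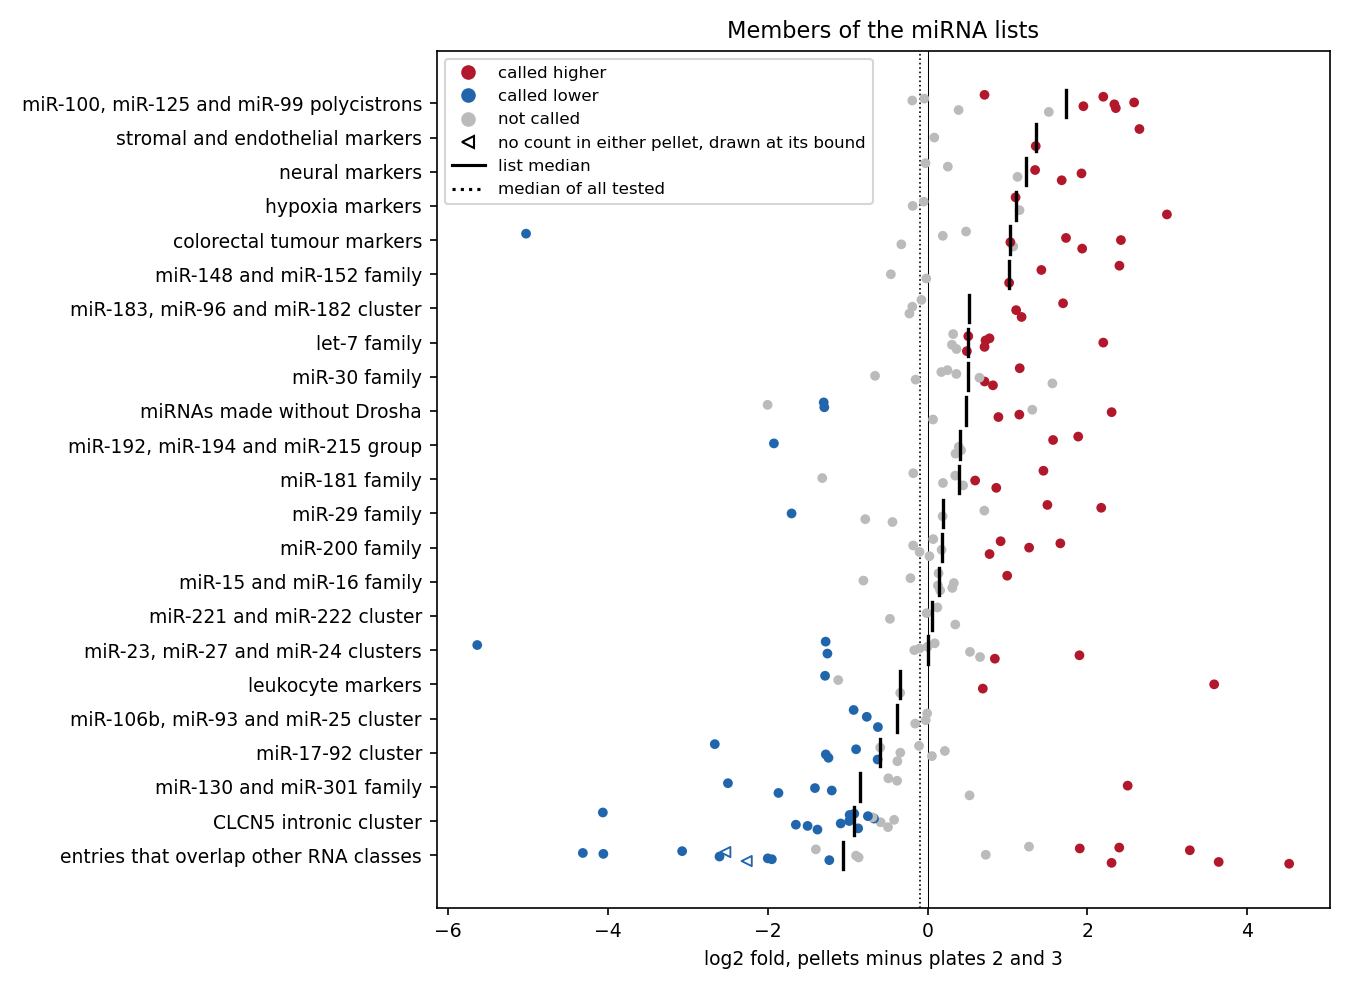
The log2 fold (pellets minus plates 2 and 3, horizontal axis) of the tested members of each list with at least 3 of them, with red for called higher, blue for called lower, grey for not called, black bars for list medians and a dotted line for the median of all 534 tested miRNAs (-0.10). The members of the CLCN5 intronic cluster all lie below 0, and those of the let-7 family all lie above it.

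The CLCN5 intronic cluster on the X chromosome, whose members are processed from introns of the chloride channel gene CLCN5, had 11 of 15 tested members lower and none higher, with a median of -0.92. Its summed level was 3452 and 2661 CPM in the pellets, 4971, 5187, 5553 and 5445 CPM on the plates and 2759.9 and 2590.4 CPM on plate 1. The most abundant members moved less: miR-362-5p stood at 1148 and 249 CPM in the pellets and 1079, 1268, 1172 and 1103 CPM on the plates and was not called (-0.69 ± 0.38, edgeR adjusted p = 0.159). Neither was miR-532-5p (-0.42 ± 0.24, adjusted p = 0.18), while miR-660-5p fell by 0.75 ± 0.21 on the log2 scale (adjusted p = 0.0105, but -0.68, adjusted p = 0.122 with limma-voom). The HF7 pellet alone was low for miR-362-5p, which was called without the HF6 pellet (-2.25, adjusted p = 1.80e-06), and miR-532-5p was called without the HF7 pellet (-0.94, adjusted p = 0.00317). miR-500a-3p stood at 147 and 133 and 351, 355, 399 and 364 CPM (-1.38 ± 0.22, edgeR adjusted p = 1.11e-04), and miR-502-3p at 239 and 196 and 450.2, 458, 502 and 461 CPM (-1.09 ± 0.21, adjusted p = 7.45e-04). miR-501-3p, which shares its seed with miR-502-3p, fell too (-1.50), and for each of these last 3 both pellets lay below all 4 plates. The count of lower members was 4 with limma-voom and 14 with total counts as the only scaling.

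In the miR-17-92 cluster, an oncogenic cluster in MIR17HG on chromosome 13, 5 of 11 tested members were lower and none was higher, with a median of -0.59. miR-19a-3p stood at 1916 and 1768 and 4221, 4667, 5114 and 3813 CPM (-1.27 ± 0.25, edgeR adjusted p = 7.10e-04), miR-18a-5p at 1268 and 826 and 2417, 2294, 3113 and 2124 CPM (-1.24 ± 0.25, adjusted p = 8.92e-04), and miR-19b-3p fell as well (-0.89 ± 0.22, adjusted p = 0.00354). The most abundant member, miR-92a-3p, at 24153 and 27916 and 25536, 27660.5, 29303 and 29612 CPM, was not called (-0.11 ± 0.16, adjusted p = 0.611). Scaling by total counts only did call miR-92a-3p lower (-0.43, edgeR adjusted p = 0.0288). With TMM, members of 1 primary transcript thus ranged from -2.66 to 0.22. In the related cluster of miR-106b, miR-93 and miR-25 in MCM7, 3 of 6 were lower with a median of -0.39, among them miR-106b-5p (-0.62 ± 0.21, adjusted p = 0.0248), and with limma-voom none was called.

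In the cluster of miR-182, miR-183 and miR-96 on chromosome 7, which is known from sensory cells and is raised in many carcinomas, the 3 abundant 5p strands all rose. miR-182-5p stood at 12759.6 and 13753 CPM in the pellets and 3816, 4003, 3959 and 4591 CPM on the plates (1.70 ± 0.17, edgeR adjusted p = 1.12e-06), the groups lay far apart, and plate 1 fell between at 8122 and 7136 CPM. miR-183-5p stood at 3593 and 4072 and 1739, 1548, 1646 and 1846 CPM (1.18 ± 0.18, adjusted p = 8.96e-05), and miR-96-5p at 2114 and 1141 and 755, 1029, 603 and 652 CPM (1.11 ± 0.26, adjusted p = 0.00324). The 3 opposite strands ran from -0.23 to -0.08 and none was called. In the miR-181 family 3 of 8 tested members were higher and none lower (median 0.40), with miR-181a-5p at 5119 and 3645 and 2268, 3013, 2124 and 2266 CPM (0.86 ± 0.20, adjusted p = 0.00314). Scaling by total counts only gave 2 higher and 1 lower in this family. Without the HF6 pellet miR-96-5p (0.55, adjusted p = 0.129) and miR-181a-5p (0.55, adjusted p = 0.0545) were not called.

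In the miR-30 family 3 of 10 tested members were higher and none lower, with a median of 0.51, and miR-30e-3p rose most of these (1.15 ± 0.21, edgeR adjusted p = 3.55e-04). With total counts, without a filter, with limma-voom, with the compared libraries only or without the HF6 pellet 1 was called, and without the HF7 pellet 5. The miR-15 and miR-16 family had 1 of 8 higher, no more than the share over all tested miRNAs (18.9%), and a median of 0.15, and the miR-221 and miR-222 cluster had none of 4 called in either direction and a median of 0.06. Both medians fell below 0 with total counts as the only scaling (-0.24 and -0.37), where 2 and 1 members were called lower and none higher. Of 8 tested miRNAs made without Drosha, 3 were higher and 2 lower. miR-320d, miR-320c and miR-320b, which share 1 seed and differ from each other by at most 1 mismatch where they overlap, rose by 2.30, 1.15 and 0.89. Of these miR-320c (0.61, adjusted p = 0.151) and miR-320b (0.32, adjusted p = 0.393) were not called without the HF6 pellet. miR-320a-3p, which is within 1 mismatch of miR-320b, miR-320c and miR-320d, was not called (0.07), and neither was miR-320e (1.31). Of the same list miR-484 fell (-1.29 ± 0.21, adjusted p = 1.38e-04) and miR-877-5p fell (-1.30, but -1.23, adjusted p = 0.159 with limma-voom). The call of miR-320b was also lost with total counts (0.49, adjusted p = 0.0579), without a filter (0.61, adjusted p = 0.124) and after thinning (0.63, adjusted p = 0.0589). In the miR-130 and miR-301 family 4 of 8 were lower and 1, miR-301b-3p, was higher, and the count of lower members was 2 with limma-voom, with the compared libraries only or after thinning and 1 without the HF6 pellet.

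Of 5 tested miRNAs known from cells in low oxygen 2 were higher, miR-210-3p and miR-26a-5p (1.10 ± 0.20, edgeR adjusted p = 4.67e-04), and none was lower. Scaling by total counts only gave 2 higher and 2 lower. Of 9 tested colorectal tumour markers 4 were higher and 1, miR-592, was lower, and with total counts as the only scaling 4 were higher and 2 lower. miR-135b-5p, which is raised in colorectal adenomas and carcinomas and targets the messenger RNA of APC, stood at 2341 and 1190.5 CPM in the pellets, 462, 699, 319.8 and 383 CPM on the plates and 1887 and 2034 CPM on plate 1 (1.93 ± 0.29, adjusted p = 6.85e-05). The other 2 that rose beside miR-625-3p were miR-625-5p (1.73) and miR-552-5p (1.04), and without the HF6 pellet miR-625-5p (1.41, adjusted p = 0.109) was not called. The call of miR-552-5p was lost without a filter (0.78, adjusted p = 0.0523) and after thinning (0.38, adjusted p = 0.417).

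Markers of other cell types were present at very different levels. The 7 leukocyte markers, of which 6 are in the table, summed to 11142 and 7423 CPM in the pellets and 4043, 4605, 2913 and 3668 CPM on the plates. Most of the pellet sum was miR-146a-5p, which epithelial cells also make. Of the 5 tested, miR-142-5p was higher too (0.69 ± 0.24, edgeR adjusted p = 0.0311) and miR-155-5p was lower (-1.28 ± 0.29, adjusted p = 0.00237), and the myeloid marker miR-223-3p was at 0 in 5 of the 6 libraries. The other 2 tested, miR-142-3p (-0.34) and miR-150-5p (-1.12), were not called, and the median of the 5 was -0.34 against -0.10 over all tested. Without the HF6 pellet miR-142-5p (0.59, adjusted p = 0.106) and miR-155-5p (-0.73, adjusted p = 0.158) were not called, and without HF7 plate 2 miR-142-5p was not (0.50, adjusted p = 0.0589). miR-142-5p, at 1861 and 1695 and 1261, 1412, 699 and 1037 CPM, also lost its call with total counts (0.35, adjusted p = 0.207), without a filter (0.45, adjusted p = 0.237), and with the compared libraries only (0.65, adjusted p = 0.0943). The same held for it after thinning (0.49, adjusted p = 0.124) and with limma-voom (0.74, adjusted p = 0.163). miR-155-5p was not called after thinning (-0.92, adjusted p = 0.0666). The erythroid markers summed to between 9.45 and 21.0 CPM in the 6 libraries, with miR-486-5p at 0 and miR-451a, at 11.6 and 7.003 and 5.28, 6.49, 3.15 and 5.03 CPM, not called (1.12 ± 0.47, adjusted p = 0.063). The liver miRNA miR-122-5p had 2 counts in the HF6 pellet and none in the other 5 libraries.

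Stromal and endothelial markers summed to 149 and 193 CPM in the pellets and 103, 56.0, 86.5 and 59.6 CPM on the plates, with miR-214-3p at 0 in all 6 libraries and miR-143-3p at 0 in both pellets. Of 3 tested, the endothelial miR-126-3p was higher at 109 and 140.1 CPM against 59.9, 33.3, 56.4 and 37.7 CPM (1.35 ± 0.29, edgeR adjusted p = 0.00159), as was the rare miR-199b-5p (2.65, but 2.57, adjusted p = 0.0858 without the HF6 pellet). The muscle marker miR-1-3p was higher, at 29.4 and 98.0 and 6.42, 9.74, 7.16 and 11.6 CPM (2.64 ± 0.45, adjusted p = 2.33e-04), while miR-133b was at 0 in all 6 libraries. The 7 neural markers had the largest sum of these lists, at 72180.3 and 39239 CPM in the pellets and 44295, 52575, 44052 and 45533 CPM on the plates. Nearly all of it was miR-7-5p, at 71367 and 38546 and 43788, 52083, 43486 and 45034 CPM, which endocrine and epithelial cells also make. It was not called (0.25 ± 0.20, edgeR adjusted p = 0.316), but was without the HF7 pellet (0.50, adjusted p = 0.0129), and its sign changed with the scaling. Of 6 tested neural markers 3 were higher and none lower, among them miR-338-3p (1.93 ± 0.29, adjusted p = 6.85e-05) and miR-9-5p (1.68 ± 0.32, adjusted p = 6.77e-04, but 0.87, adjusted p = 0.336 after thinning), and the neuronal miR-124-3p was at 0 in 4 of the 6 libraries. Whether RNA of other cells had a part in any of these differences was not tested.

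Entries whose sequence overlaps another class of RNA (small nuclear, nucleolar, ribosomal, mitochondrial or transfer RNA) moved in both directions. Of 20 tested, 6 were higher and 9 lower, with a median of -1.06. Their summed level was 45434 and 14608 CPM in the pellets and 5944, 6803, 8222 and 6824 CPM on the plates, and most of the pellet sums came from miR-12136 and miR-1246. Beside those 2 and miR-3609, miR-1291 (2.30), miR-664a-3p (1.90) and miR-664a-5p (2.40, but 1.13, adjusted p = 0.486 without the HF6 pellet), which lie in small nucleolar RNAs, were higher. miR-4485-3p, whose sequence matches mitochondrial ribosomal RNA and whose annotated site is an exon of MTRNR2L8, was lower at 279 and 644 CPM against 1566, 1342, 2157 and 1875 CPM (-1.95 ± 0.40, edgeR adjusted p = 0.00114). The part of RNA fragments of these other classes in the values was not tested, and without the whole list 207 miRNAs were called in place of 215.

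The less abundant arms of hairpins were compared with the abundant ones, since several had moved apart. The less abundant arm was the one with the lower mean CPM over the 12 libraries fitted together. In 164 hairpins with both arms tested, the less abundant arms made up 1.75 and 2.04% of the reads of both arms in the pellets and 2.25, 1.998, 1.99 and 2.07% on plates 2 and 3, so the groups overlapped. They did not overlap when the less abundant arm was set by plate 1, or when arms with more than 1 location or a near copy were left out, with both pellets then below the 4 plates. Of the 164 less abundant arms 22 were higher and 35 lower, with a median log2 difference of -0.09 against -0.10 over all tested miRNAs. Of the 157 abundant arms 44 were higher and 29 lower (median 0.08). The less abundant arm had a lower log2 difference than its partner in 98 of the 164 hairpins, so its loss was not general. The 6 hairpins in which the arms parted most all lost the less abundant arm relative to the other in the pellets. They were taken from those with at least 100 CPM of that arm in a group. Others above that limit went the opposite way. In miR-423, miR-425 and miR-151a the share of the less abundant arm was higher in both pellets than in all 4 plate libraries. miR-92a-1-5p made up 0.101 and 0.0877% of the sum with miR-92a-3p in the pellets, 0.723, 0.519, 0.565 and 0.408% on the plates and 0.403 and 0.389% on plate 1, with no overlap of pellets and plates. miR-194-3p made up 0.0882 and 0.0416% of the sum with miR-194-5p in the pellets, 0.456, 0.286, 0.345 and 0.471% on the plates and 0.283 and 0.332% on plate 1.

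miR-130b-5p made up 20.5 and 5.92% of its pair in the pellets and 53.2, 44.8, 47.2 and 41.8% on the plates, and miR-29b-1-5p 3.06 and 2.32% and 14.6, 8.84, 12.1 and 6.42%. In HF6 plate 2, at 53.2%, miR-130b-5p was thus the more abundant arm of its pair. In miR-32 the abundant arm rose instead (miR-32-5p 1.47, edgeR adjusted p = 4.67e-04), so that miR-32-3p went from 36.0, 20.4, 48.3 and 29.8% on the plates to 9.17 and 13.5% in the pellets. For miR-374b-3p the pellets overlapped the plates, at 0.944 and 4.51% against 9.38, 5.81, 3.32 and 5.55%. miR-92a-3p and miR-194-5p each come from 2 hairpins, so their sums hold reads of a second hairpin.

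**Figure D4:**
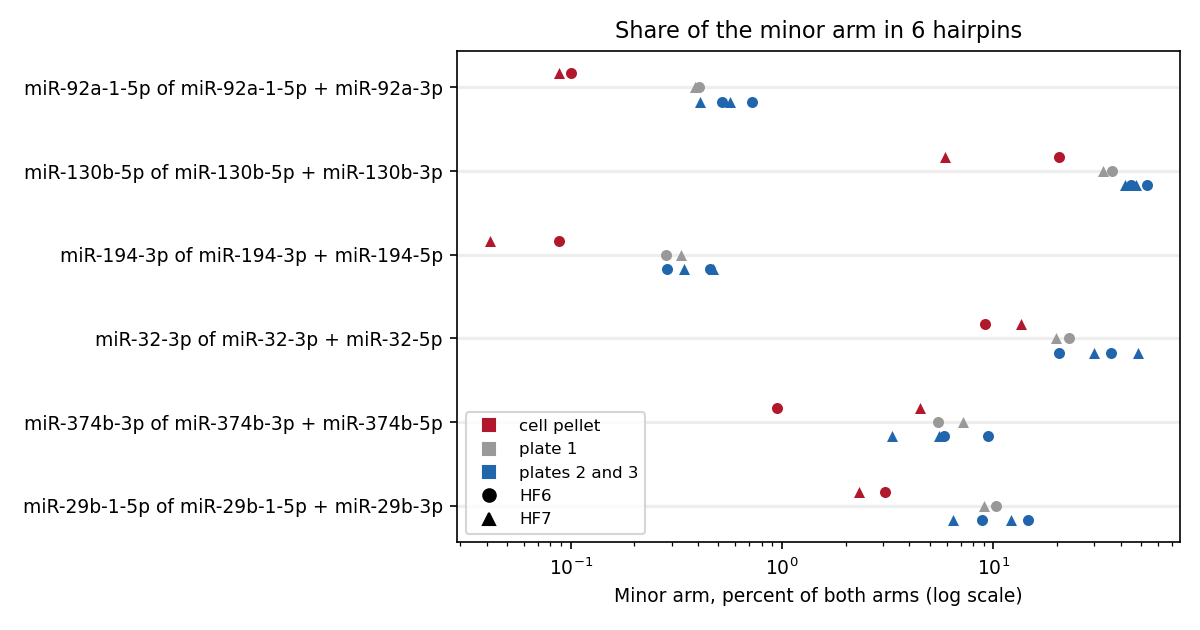
The share of the less abundant arm in the reads of both arms (percent, log scale) for 6 hairpins, 1 point per library, with colours for groups and circles and triangles for HF6 and HF7. In miR-92a-1, miR-194, miR-130b, miR-32 and miR-29b-1 both pellets lie below all 4 libraries of plates 2 and 3, and in miR-374b they overlap.

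Base composition went with the difference over all tested miRNAs, and more weakly among the abundant ones. With the 534 tested miRNAs parted in 3 by the share of G and C in the mature sequence (179, 199 and 156 members), the median log2 difference was 0.08 in the lowest, 0.09 in the middle and -0.84 in the highest, where 18 were higher and 61 lower. With the entries at 0 in both pellets set to their bound the last median was -0.79. In fixed bins the relation was not even: the median was -0.48 from 20 to 30% GC (22 members), 0.19 from 40 to 50% (153 members) and -0.64 from 60 to 70% (72 members). In the bin of 80 to 90% GC, with 14 members, the median with bounds was -2.02 and 9 were lower, and in that of 90 to 100%, with 5 members, it was -2.60 and all 5 were lower. Entries with no count in either pellet, several of them rich in GC, passed the filter on low counts through other libraries. In the shallow HF7 pellet 1 count equals 3.50 CPM. The part of the filter and of depth in the medians of these rare entries was not tested. The group highest in GC had medians of -0.68 in HF6 and -1.42 in HF7 taken alone, against 0.20 and -0.33 in the lowest. Over all 534 the correlation of GC content with the log2 difference was r = -0.31 (rho = -0.23), and over the 180 miRNAs whose mean reached 100 CPM it was -0.06 (rho = -0.13). In those 180 the medians were 0.20, 0.16 and -0.28. Of the 68 lowest in GC 22 were higher and 7 lower, and of the 29 highest in GC 6 were higher and 10 lower. The mean GC content weighted by reads was 41.6% and 41.4% in the pellets and between 41.4% and 41.7% on the plates. Among the GC-rich entries that fell were miR-1268b, at 1.09 and 0 and 22.3, 14.6, 16.6 and 26.2 CPM (-4.31 ± 0.63, edgeR adjusted p = 4.54e-05), and its shorter near copy miR-1268a (-4.06).

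**Figure D5:**
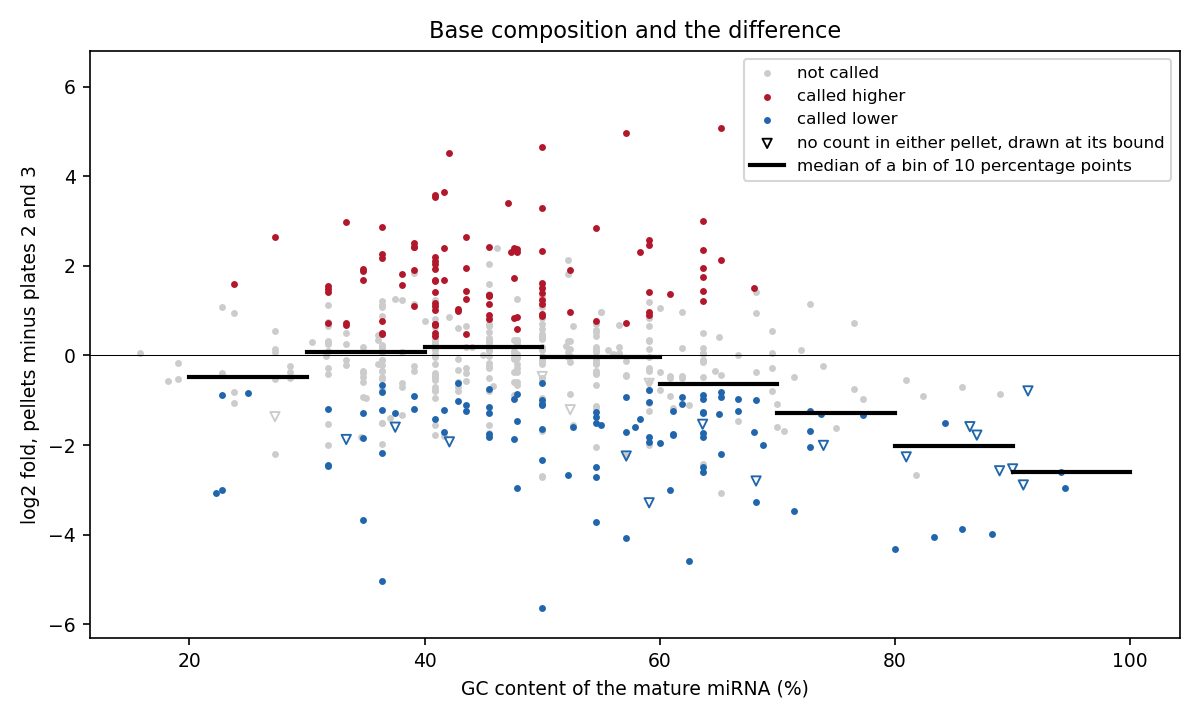
GC content of the mature miRNA (percent, horizontal axis) against the log2 fold in the pellets relative to plates 2 and 3 for 534 miRNAs, with black bars for the median in bins of 10 percentage points and open triangles for entries with no count in either pellet, drawn at their bound. The medians lie between -0.48 and 0.19 up to 60% GC and reach -2.60 above 90%.

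The direction within HF6 and within HF7 was compared for the named miRNAs, with 1 CPM added to each level. Of the 158 named and tested, 129 lay on the same side in the HF6 and HF7 comparisons of a pellet with plates 2 and 3 of its own number. Among them were 104 of the 107 called, a share that the calls on the same libraries largely fix. The 3 called ones that did not were miR-200a-5p, at 887 and 2517 CPM in the pellets and 1137, 922, 969 and 914 CPM on the plates (0.78 ± 0.29, edgeR adjusted p = 0.0433), miR-99b-3p and miR-125a-3p. miR-99b-3p stood at 14.9 and 0 and 4.82, 0.811, 2.58 and 2.26 CPM, and miR-125a-3p at 5.82 and 0 and 0.688, 0, 1.15 and 0.754 CPM. Of these miR-200a-5p was high in the HF7 pellet, and the other 2 in the HF6 pellet with no count in the HF7 pellet. The call of miR-200a-5p was lost without the HF7 pellet, where its sign turned (-0.28, adjusted p = 0.317), without any 1 of the 4 plate libraries (adjusted p between 0.0629 and 0.128), and under 7 other settings (adjusted p between 0.0537 and 0.499). When the HF6 pellet was left out, miR-99b-3p (adjusted p = 0.391) and miR-125a-3p (adjusted p = 0.638) were not called. Over all 215 calls, 87 of the 101 increases and 109 of the 114 decreases had pellets and plates that did not overlap, against 53.2% of all tested miRNAs. The calls rest on the same libraries, which largely fixes these counts. Of the decreases, 15 had no count in either pellet.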

How the data were processed

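Small RNA of DiFi cells was purified with miRNeasy columns and NEXTflex reagents were used for the libraries, per the labels' protocols, which name extracellular samples only. The deposited values are the authors' expected counts of reads per mature miRNA, not normalized. The table lists 1619 entries, and its 14 columns were matched to samples by title. The submitters' processing notes name cutadapt 2.10, Bowtie 1.3.1, FastQC and the build GRCh38. Some values are fractional. How these arose, the release of the miRNA annotation, the mismatches allowed and the treatment of reads with more than 1 location are not given in the sources used here. Of the 15 samples, those labelled HDM medium without cells, HDM medium and regular medium were not analysed here, which leaves 12.

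Values were rounded to whole counts. The 12 replicated libraries (pellets, plate 1, plates 2 and 3, unfiltered HDM and filtered HDM) were fitted together in edgeR 4.0.16 (R 4.3.3; TMM factors, filterByExpr by group, robust quasi-likelihood fit with 1 coefficient per group and 7 residual degrees of freedom), which left a common biological coefficient of variation of 0.231. The spread behind each p-value therefore comes from all 12 libraries. Calls were made where the adjusted p (Benjamini-Hochberg, over the 534 tested) was under 0.05, and SE is the standard error of the fitted log2 fold. The scripts were tested on simulated counts. CPM values are scaled to the TMM-adjusted library total. No 2 cell libraries of a group agreed within sampling noise (chi-square per degree of freedom at least 29.6), so none was counted as a copy.

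The comparison, the grouping of plates 2 and 3 apart from plate 1, the 26 lists of miRNAs and the rule for naming miRNAs were chosen with earlier results of these data known. The rule names the 12 largest increases and decreases among called miRNAs with a group mean of at least 100 CPM and no overlap of pellets and plates. It adds miR-4521, miR-192-5p, miR-1246, miR-125b-5p, miR-21-5p, let-7a-5p, miR-146a-5p, miR-100-5p, miR-122-5p, miR-200c-3p, miR-210-3p and miR-451a. In each list it takes the called members and the 4 most abundant ones, and for arms the 6 hairpins that parted most, and of these the text gives the ones described in the report. Lists were described by counts and medians without a set test. Host genes are from GENCODE release 29, and sequences were compared with RefSeq: of 159 named miRNAs 147 were the same and 12 had no entry. Among these 159, 34 have a near copy within 1 mismatch and 22 have more than 1 location, for which the first is printed.

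Alternatives were DESeq2 1.42.0, RLE factors, no filter, scaling by total counts only, at least 50 counts in at least 2 libraries, limma-voom (limma 3.58.1) with quality weights, a fit of the compared groups only, HF number as a replicate block, separate coefficients for plates 2 and 3, removal of entries that overlap other RNA classes, libraries thinned to the smallest total, and each library left out in turn. The floor of 3 counts covers counting error only, since the table holds no molecular identifiers. Figures were drawn with matplotlib 3.10.9.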

Additional observations from a re-analysis of the deposited data

Results flagged for a closer look

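In each of 96 named miRNAs the 4 libraries of plates 2 and 3 were searched for a library that stands apart, with a gap to its nearest neighbour that, relative to the range of the 4, exceeds the 95% critical value of Dixon's test, which chance gives in about 1 of 20 groups. It was met in 4 miRNAs. HF7 plate 2 was the highest for miR-125b-5p, at 996 CPM with the next library at 835 CPM. HF6 plate 2 was the lowest for miR-200b-3p, at 75116 CPM with the next at 80035 CPM. HF6 plate 3 was the highest for miR-181a-5p, at 3013 CPM with the next at 2268 CPM, and HF7 plate 3 the highest for miR-320c, at 91.0 CPM with the next at 71.4 CPM.

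Among the same 96 miRNAs the pellet lay on opposite sides of its own plates 2 and 3 in HF6 and in HF7 for 7, of which miR-200a-5p, miR-99b-3p and miR-125a-3p were called higher and the others were not called. That difference was not tested. miR-125b-5p stood at 914 CPM in the HF6 pellet against a mean of 829.8 CPM on its plates, and at 588 CPM in the HF7 pellet against 899 CPM. miR-27b-3p stood at 7742 CPM in the HF6 pellet against 9714 CPM, and at 11845 CPM in the HF7 pellet against 8681 CPM. miR-23b-3p stood at 6936 CPM in the HF6 pellet against 6138 CPM, and at 4734 CPM in the HF7 pellet against 5547 CPM. miR-7-5p stood at 71367 CPM in the HF6 pellet against 47936 CPM, and at 38546 CPM in the HF7 pellet against 44259.7 CPM. miR-200a-5p stood at 887 CPM in the HF6 pellet against 1029.6 CPM, and at 2517 CPM in the HF7 pellet against 941 CPM. The rare miR-99b-3p stood at 14.9 CPM in the HF6 pellet against 2.81 CPM, and at 0 CPM in the HF7 pellet against 2.42 CPM. The rare miR-125a-3p stood at 5.82 CPM in the HF6 pellet against 0.344 CPM, and at 0 CPM in the HF7 pellet against 0.950 CPM.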

How the results depend on the processing

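The count of 215 miRNAs that differed between pellets and plates 2 and 3 became 103 with every library thinned to the smallest total, where 263 were tested, and 107 with limma-voom and quality weights (cause not tested). Under the other settings it ran from 173 to 265, and with 1 library left out from 150 (without the HF6 pellet) to 264 (without the HF7 pellet). Without a pellet the remaining pellet stands alone and is assumed to vary like the other groups. The 138 calls between plate 1 and plates 2 and 3 became 74 after thinning, 207 with limma-voom, and between 53 and 135 with 1 library left out. The 98 calls among members of the lists, each counted once, became between 68 and 112 under the alternatives, and between 73 and 112 with 1 library left out. The share of the less abundant arms in the reads of both arms, mean of pellets minus mean of plates 2 and 3 (-0.19 percentage points), moved to -0.32 with the less abundant arm set by plate 1 and to -0.43 without arms of more than 1 location or with a near copy. The difference in median log2 fold between the highest and lowest group in GC content (-0.92) moved to -0.16 with fixed bins of 10 percentage points, where the outermost bins with at least 20 members are 60 to 70% (-0.64) and 20 to 30% (-0.48). The cause was not tested for the arms.

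The sign of the uncalled miR-27b-3p turned to -0.21 with total counts as the only scaling, -0.13 without a filter, -0.0467 with limma-voom and -0.37 without the HF7 pellet, and that of the uncalled miR-23b-3p to 0.0042 with a coefficient for each plate number, 0.0758 with limma-voom and 0.12 without the HF7 pellet. That of the uncalled miR-7-5p turned to -0.13 with total counts and -0.0100 without a filter. Leaving out 1 library at a time moved miR-23b-3p between -0.34 and 0.12, miR-7-5p between -0.30 and 0.50 and miR-200a-5p between -0.28 and 1.32. It moved the fitted values of miR-99b-3p between -5.83 and 2.27 and of miR-125a-3p between -3.95 and 2.75. The negative ones, without the HF6 pellet, are no bounds, since the HF7 pellet had no count of either. Over the 96 named miRNAs and all settings, calls were lost with the sign kept 30 times with a library left out and 48 times otherwise, and gained 12 and 20 times. Signs changed 6 and 7 times, and among the former miR-200a-5p, miR-99b-3p and miR-125a-3p lost their calls as well. With HF number as a replicate block 210 miRNAs were called between pellets and plates 2 and 3, 95 among the list members and 140 for plate 1. The numbers were not taken as pairs, and the values do not settle whether they are. Deviations of the HF6 pellet correlated at -0.06 and 0.33 with those of HF6 plates 2 and 3, and at -0.06 and -0.22 with those of HF7 plates 2 and 3. Those of the HF7 pellet correlated at 0.06 and 0.22 with its own plates. With only 2 pellets, the deviations of 1 are those of the other with the sign turned, so they are not independent. The shallow HF7 pellet limits what can be said of miRNAs under about 10.5 CPM.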
